A study of Mus musculus with 10 samples.

Results

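The genes described here are the receptors of sphingosine-1-phosphate (S1P) and the enzymes, transporter and carrier that make, move and remove this lipid, in RNA-seq of primary differentiated adipocytes. They are 10 of the 56748 genes of the deposited counts table, matched by gene symbol: the receptor genes *S1pr1*, *S1pr2* and *S1pr3*, the kinase genes *Sphk1* and *Sphk2*, the export and carriage genes *Spns2* and *Apom*, and the breakdown genes *Sgpl1*, *Sgpp1* and *Plpp3*. The set was chosen with the KO-against-control result known, so that contrast is given for these genes as a description, with no P value.

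S1P is a signaling lipid made when sphingosine kinases phosphorylate sphingosine, which comes from ceramide. Cells release it through transporters such as SPNS2, lipoproteins carry it in plasma on apolipoprotein M, and G protein–coupled receptors on the cell surface sense it. Phosphatases return it to sphingosine, and S1P lyase cleaves it for good. In vessels, S1PR1 is known for keeping the endothelial barrier tight, and in fat the pathway links ceramide turnover with vascular, immune and adipocyte signaling.

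Stromal vascular cells of inguinal fat from male mice 6 to 8 weeks old were differentiated in culture for 6 to 8 days with IBMX, dexamethasone, insulin and rosiglitazone. The 5 control libraries had the genotype Fam20c-flox and the 5 KO libraries Fam20c-flox/Adipoq-Cre, so both groups carried the floxed allele of the secreted kinase gene *Fam20c* and only the KO group carried Cre. The *Adipoq* promoter drives Cre in differentiated adipocytes, and cells of other types in these cultures are not its target. *Fam20c* counts cover the whole gene rather than the floxed exons, and their log2 fold change was -0.49 (SE 0.0929, adjusted p = 0.0137, edgeR's quasi-likelihood test, Benjamini-Hochberg), and the groups did not overlap.

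Totals ran from 18949106 to 26237825 counts in control libraries and from 19883101 to 23291792 in KO libraries, and levels are in CPM, the counts divided by TMM-normalized library sizes. The 8 adipocyte markers summed to 28032 to 28938 CPM in control and 29396 to 31507 CPM in KO libraries, with no overlap. *Fabp4* alone averaged 20805 CPM of that sum in control and 22552 CPM in KO libraries, while *Lep* had a log2 fold change of -0.32. In all 0 of the 8 passed the limit in edgeR's test (adjusted p of 0.05), with 0 lower and 4 higher at an unadjusted p under 0.05. The cultures also held transcripts of other cells: 9 macrophage markers summed to 1447 to 2235 CPM in control and 1278 to 2127 CPM in KO libraries. Control 4 and KO 1 stood apart from the other 8 libraries on the leading principal component (23.5% of the variance), and results that rest on them are given with and without them. The labels do not say that the libraries of a group come from separate mice or cultures, so P values measure only the spread between these libraries, which may be technical.

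The promoter table from RefSeq (GRCm38.p6) held 9 of the 10 genes, all but *S1pr1*, and a pair of windows is shown, from a receptor gene and a kinase gene whose windows hold a palindromic motif. Each window is the 250 bases before a gene start, written from 5′ to 3′ on the strand of the gene. The *S1pr2* window, chr9:20976794-20977043 on the minus strand, lies upstream of the gene, and its capitals mark the palindrome TGACGTCA, the cAMP response element, whose match starts 181 bases before the gene start. The *Sphk1* window, chr11:116532194-116532443 on the plus strand, ends at the base before a start of shorter *Sphk1* transcripts, lies in an intron of the longer ones and within the span of the antisense gene Gm29292. Its capitals mark the core letters of the hypoxia response element, ACGTG, matched on both strands so that the matches overlap.
S1pr2: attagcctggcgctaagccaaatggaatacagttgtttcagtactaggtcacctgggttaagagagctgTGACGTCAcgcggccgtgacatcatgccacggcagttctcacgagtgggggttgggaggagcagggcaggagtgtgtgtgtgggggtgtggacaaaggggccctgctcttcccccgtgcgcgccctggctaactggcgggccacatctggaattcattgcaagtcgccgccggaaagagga
Sphk1: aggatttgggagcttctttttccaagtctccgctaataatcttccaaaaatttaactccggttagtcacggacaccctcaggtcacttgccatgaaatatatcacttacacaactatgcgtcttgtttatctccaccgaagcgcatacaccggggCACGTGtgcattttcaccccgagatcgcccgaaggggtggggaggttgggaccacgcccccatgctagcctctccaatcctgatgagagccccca
Of 32851 such windows of all genes, 1.55% held TGACGTCA and 16.6% held ACGTG on either strand. Among the windows of the 9 genes, *S1pr2* alone held the former, and *Sphk1*, *Sphk2* and *Sgpl1* held the latter. The letters GGGCGG of the GC box stood in windows of *S1pr3*, *Sgpl1* and *Sphk2* (32.7% of all windows), and CCAAT in those of *Sgpp1*, *Sphk1*, *Sphk2* and *Spns2* (33.8%). TATAAA stood in 1 window of *Sphk1* (12.4% of all windows), which is not the window shown. The 9 genes had 14 windows, since a gene can have more than 1 annotated start. These motifs were picked after the sequences were seen, and a match is a description of the letters.

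*S1pr1* was the member with the lowest KO level relative to control. S1PR1 is the Gi-coupled receptor that endothelial cells and circulating lymphocytes use to sense S1P. Control libraries 1 to 5 were at 16.4, 16.9, 18.8, 18.6 and 16.1 CPM, and KO libraries 1 to 5 at 8.98, 8.21, 9.51, 7.19 and 8.09 CPM. Every KO library lay below every control library, and neither control 4 nor KO 1 stood out. The control mean of 17.4 ± 1.23 CPM compared with a KO mean of 8.40 ± 0.890 CPM (SD, n = 5), which is 0.484 of the control level (95% interval 0.428 to 0.548) and a log2 fold change of -1.05 (SE 0.0822). *S1pr1* (ENSMUSG00000045092.9 in the counts) lies on the minus strand of chromosome 3 from 115710433 to 115715072 in GENCODE M21, which lists it as ENSMUSG00000045092.8 with no overlapping gene.

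The other receptor genes were expressed in both groups and their libraries overlapped. *S1pr2*, which encodes a receptor of vessels and many other tissues, was at 16.8, 15.7, 22.1, 16.0 and 18.4 CPM in controls 1 to 5 and at 16.2, 15.1, 15.1, 16.5 and 17.2 CPM in KO 1 to 5. Control 3 was the highest library, and the remaining 9 lay close together. The log2 fold change was -0.15 (SE 0.0912, 95% interval -0.35 to 0.04), with a control mean of 17.8 ± 2.63 CPM and a KO mean of 16.0 ± 0.909 CPM (SD, n = 5).

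*S1pr3* encodes a receptor found on mural and other stromal cells as well as endothelium. Its control libraries 1 to 5 had 47.3, 48.1, 56.3, 71.0 and 67.6 CPM, and its KO libraries 1 to 5 had 52.7, 45.9, 38.1, 47.5 and 49.1 CPM. Controls 4 and 5 were the highest libraries and KO 3 the lowest, KO 1 was the highest KO library, and controls 1 and 2 lay among the KO libraries. The control mean was 58.1 ± 10.9 CPM and the KO mean 46.7 ± 5.42 CPM (SD, n = 5). On the log2 scale the change was -0.32 (SE 0.119, 95% interval -0.58 to -0.06). This interval, like those of the other members, is not adjusted for the number of genes or for the choice of members. *S1pr3* did not pass the limit over all genes tested. Without control 4 and KO 1 the means were 54.8 ± 9.45 and 45.2 ± 4.91 CPM (SD, n = 4). The antisense gene Gm32834 overlaps *S1pr3*, so fragments may be shared. Markers of pericytes and smooth muscle, 8 in all and none at 0, summed to 162.4 to 214.0 CPM in control and 131.0 to 177.2 CPM in KO libraries, with KO 3 again the lowest. In edgeR's test 0 of the 7 that could be tested passed the limit, 4 had an unadjusted p under 0.05 and were lower, and their part in the *S1pr3* values was not tested.

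**Figure D1:**
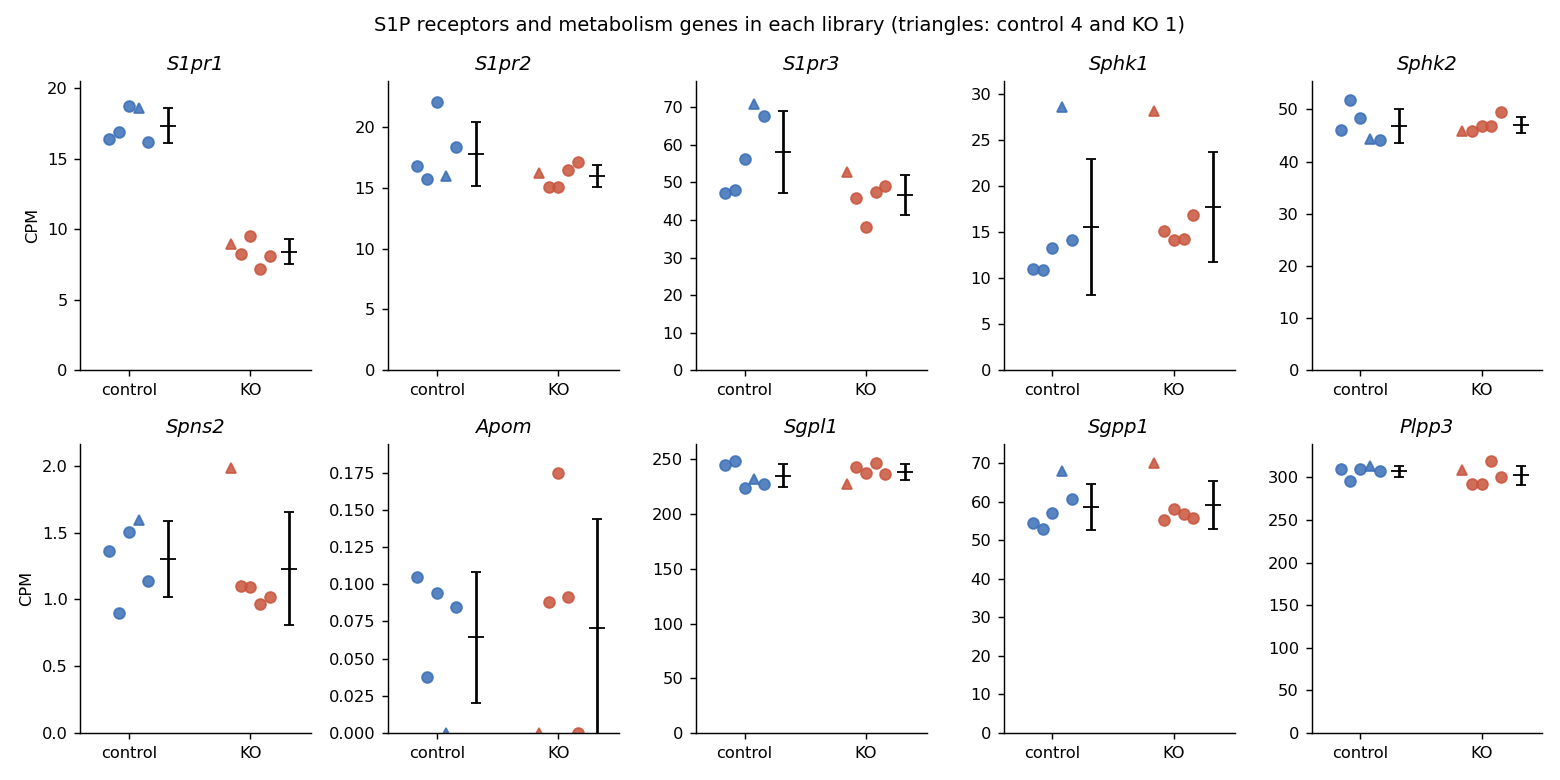
Normalized level (CPM, each panel from 0) of the 10 genes in each of 5 control and 5 KO libraries, with control 4 and KO 1 as triangles and the mean ± SD of each group beside its points. The *S1pr1* groups are separate, at 16.1 to 18.8 and 7.19 to 9.51 CPM, and the triangles lie above the other points of their group for *S1pr3*, *Sphk1*, *Spns2* and *Sgpp1*.

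Of the 9 members tested, 1 (*S1pr1*) passed the limit as lower in KO, beside 1.86% of the 14270 genes tested across the table, and 0 passed as higher, beside 0.308% (2.17% in either direction). The groups did not overlap for 1 of the 9, lower in KO, beside 2.66% of all genes tested, and for 0 higher in KO, beside 1.31% (3.97% in either direction). The members were chosen on this contrast, and nothing is read from these counts. The median log2 fold change of the 9 was -0.02, and -0.01 without *S1pr1*, against -0.000847 for all genes tested, and 5 of the 9 lay within 0.1 of 0, as did 62.3% of all genes tested.

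*S1pr1* moved beside endothelial markers. Of 15 markers of blood vessel endothelium, 12 were lower in KO by edgeR's quasi-likelihood test and none was higher. Of all genes tested, 1.86% were lower and 0.308% higher. The median log2 fold change of the markers was -1.23. The lists, like the members, were chosen with earlier results of these data known. Their summed level was 202.6 to 247.7 CPM in control and 93.1 to 134.3 CPM in KO libraries, and none of the 15 was at 0 in these libraries. The adhesion receptor gene *Pecam1* fell from 42.0 ± 4.71 to 18.0 ± 4.06 CPM and the endothelial cadherin gene *Cdh5* from 53.1 ± 5.11 to 22.1 ± 3.67 CPM (SD, n = 5). *Tek*, *Flt1* and *Vwf* were the 3 that did not pass. In bulk RNA, fewer cells of a type and less RNA per cell cannot be told apart.

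Set against those markers, the receptor genes differed in how their ratio stood in the groups. *S1pr1* CPM was 7.62 ± 0.545% of the summed endothelial CPM in control libraries (6.73 to 8.07%) and 7.75 ± 0.731% in KO libraries (6.69 to 8.72%; SD, n = 5). The control range lay within the KO range. Against *Pecam1* and *Cdh5* alone, *S1pr1* was 18.3 ± 1.69% in control and 21.3 ± 2.88% in KO. *S1pr3* went from 25.3 ± 2.89% to 43.3 ± 6.60% of the 15-marker sum, and *S1pr2* from 7.81 ± 1.05% to 14.9 ± 2.34% (SD, n = 5), with no overlap between groups for either. The marker sum itself averaged 228.4 CPM in control and 109.1 CPM in KO libraries. A gene whose level changes little therefore rises in this ratio, and the rise of *S1pr2* and *S1pr3* is not a change in their own level. These ratios use the same contrast as the choice of genes and carry no test.

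**Figure D2:**
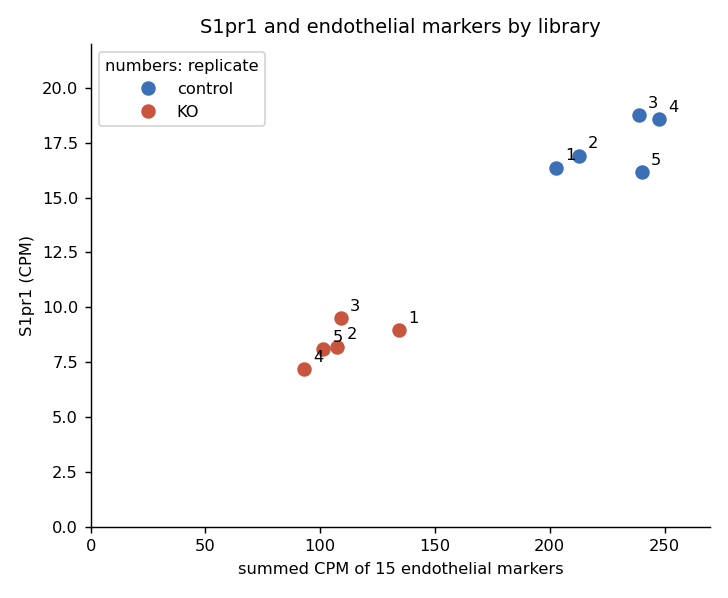
*S1pr1* level (CPM, vertical axis) against the summed level of 15 endothelial markers (CPM, horizontal axis), 1 point per library, numbered by replicate. The 5 KO libraries, at 93.1 to 134.3 CPM of the markers, sit at 7.19 to 9.51 CPM of *S1pr1*, and the 5 control libraries are higher on both axes.

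Of the lymphatic endothelial markers 2 of the 5 tested were lower in edgeR's test, beside 1.86% of all genes tested. These were *Flt4* at -1.07 and *Mmrn1* at -1.34 on the log2 scale, and *Prox1*, at -0.70, did not pass (adjusted p = 0.213, unadjusted p = 0.0118, same test). The list of 6 summed to 66.6 to 82.5 CPM in control and 56.9 to 80.0 CPM in KO libraries. That sum was carried by *Lyve1* (29.99 ± 11.98 CPM in control, log2 fold change -0.05) and *Pdpn* (32.8 ± 8.32 CPM in control, log2 fold change 0.05; SD, n = 5). Lymphocyte markers, 6 in all, summed to at most 8.12 CPM in control and 8.73 CPM in KO libraries, and the T cell marker *Cd3g* was at 0. Of 7 adipose progenitor markers 3 were lower (*Pdgfra*, *Cd34* and *Col1a1*), beside the same 1.86% of all genes tested. Their list summed to 2748 to 3212 CPM in control and 2361 to 2781 CPM in KO libraries. Of the 9 macrophage markers 0 passed, and 0 had an unadjusted p under 0.05 in edgeR's test.

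The genes whose log2 CPM was most like that of *S1pr1* over the 10 libraries, among non-members whose log2 CPM averaged 3 or more, were *Adgrl4*, *Ednrb*, *Cdh5*, *Emcn* and *Itgb3*, with Pearson correlations of 0.988, 0.979, 0.975, 0.969 and 0.968. Deviations from the group means correlated at 0.784, 0.610, 0.574, 0.466 and 0.462 for the same genes, so part of the likeness is the difference between groups that they share. *Cdh5* and *Emcn* are in the endothelial marker list. Their fold changes ran from -0.90 (*Itgb3*) to -1.29 (*Emcn*) on the log2 scale, and *Adgrl4*, an adhesion receptor of endothelium, went from a mean of 25.8 to 10.8 CPM.

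Receptor make-up, on a scale of CPM per kilobase of exon, differed between groups. The sum of the 3 receptor genes per kilobase was 20.9 ± 2.66 in control (18.1 to 24.0) and 15.2 ± 1.20 in KO (13.5 to 16.8; SD, n = 5), with no overlap. *S1pr1* gave 27.5 ± 3.01% of that sum in control and 18.2 ± 2.85% in KO libraries (SD, n = 5). The highest KO share, 23.1% in KO 3, lay just under the lowest control share, 23.3% in control 5. *S1pr1*, at 5.70 per kilobase in control and 2.76 in KO, enters the sum and every share. It was chosen on this contrast, so these differences in part restate its own and carry no test. *S1pr3* made up 61.8 ± 4.24% and 68.5 ± 3.17%, and *S1pr2* 10.8 ± 1.70% and 13.2 ± 0.785% (SD, n = 5), and for these genes the groups overlapped. *S1pr4* and *S1pr5*, the receptor genes of lymphoid and neural cells, had at most 8 and 4 counts in a library and 21 and 13 over all libraries, and were not tested.

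The kinase genes differed in their spread. *Sphk1*, the inducible cytosolic kinase, was at 11.0, 10.8, 13.3, 28.6 and 14.1 CPM in controls 1 to 5 and at 28.2, 15.1, 14.1, 14.2 and 16.8 CPM in KO 1 to 5. Control 4 was 2.32 times the mean of the other controls and KO 1 was 1.87 times the mean of the other KO libraries, which are the libraries apart on the leading component. With them the log2 fold change was 0.19 (SE 0.273, 95% interval -0.40 to 0.78), between means of 15.6 ± 7.41 and 17.7 ± 5.96 CPM (SD, n = 5). Without both, controls averaged 12.3 ± 1.62 CPM and KO libraries 15.1 ± 1.26 CPM (SD, n = 4), the log2 fold change was 0.29, and the highest control (14.08 CPM) lay just under the lowest KO library (14.14 CPM). Without KO 1 alone the value was -0.04, and without control 4 alone it was 0.52. The antisense gene Gm29292 overlaps *Sphk1* (chromosome 11, 116530925 to 116536674), and the strand setting of the counting is not given in the sources used here.

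*Sphk2*, the kinase of nucleus and mitochondria, ranged from 44.1 to 51.9 CPM in control and from 45.9 to 49.6 CPM in KO libraries. The means were 46.9 ± 3.27 and 47.0 ± 1.51 CPM (SD, n = 5), and the 95% interval of the difference ran from -7.30% to 8.14%. Control 4, at 44.2 CPM, and KO 1, at 45.9 CPM, did not stand out for *Sphk2*. Per kilobase, *Sphk1* gave 21.9 ± 8.21% of the kinase transcripts in control and 24.3 ± 5.92% in KO libraries (SD, n = 5), with 36.0% in control 4 and 34.8% in KO 1. *Sphk2* overlaps Dbp and Rpl18 on the other strand.

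The genes most like *Sphk1* over the 10 libraries, by the same rule, were *Igf2bp2*, *Clstn3*, *Pkm*, *Ndrg1* and *Gapdh*, with correlations from 0.986 to 0.992, and from 0.986 to 0.992 also for deviations from the group means. *Pkm* and *Gapdh* encode glycolytic enzymes, and *Ndrg1* is a gene known to respond to stress and low oxygen. *Ndrg1* had 174.5 CPM in control 4 against 55.6 to 65.9 CPM in the other controls, and 175.2 CPM in KO 1 against 71.3 to 88.2 CPM in the other KO libraries. *Pkm* reached 1887 CPM in control 4 (1131 to 1331 CPM in the other controls) and 1882 CPM in KO 1 (1259 to 1383 CPM in the other KO libraries). The same pair of libraries, 1 in each group, was thus high for these genes as for *Sphk1*. The labels give no batch, and whether library handling plays a part was not tested.

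**Figure D3:**
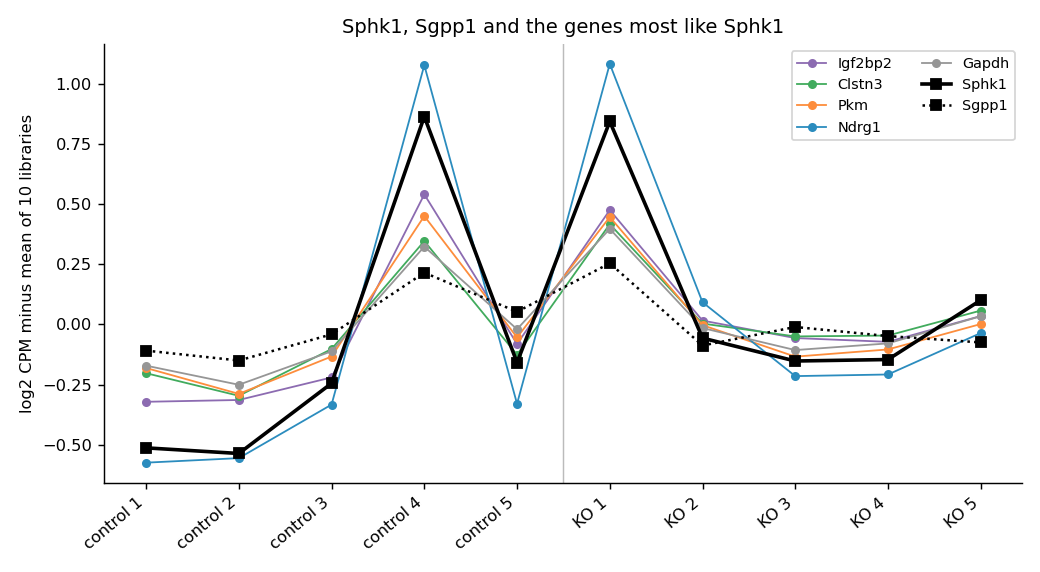
Level of *Sphk1*, *Sgpp1* and the 5 genes most like *Sphk1* in each library, as log2 CPM minus the gene's mean over the 10 libraries (vertical axis), with controls left of the line and KO libraries right of it. All 7 genes have their highest values in control 4 and KO 1, at 28.6 and 28.2 CPM for *Sphk1* and 68.1 and 70.0 CPM for *Sgpp1*.

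Export and carriage genes had few counts in these cultures. *Spns2*, the S1P transporter, had 20 to 40 counts in a library, averaging 1.30 ± 0.282 CPM in control (0.900 to 1.596) and 1.23 ± 0.425 CPM in KO (0.962 to 1.98; SD, n = 5). Control 4 was the highest control, KO 1 was the highest library at 1.98 CPM, and the other KO libraries had 0.962 to 1.10 CPM. The 95% interval of the log2 fold change, from -0.58 to 0.44, was wide at this depth, and Mybbp1a overlaps *Spns2* on the other strand, so fragments may be shared. *Apom*, the plasma carrier made mainly by liver and kidney, had 0 to 4 counts in a library and 15 in total, too few to test. It was at 0 in control 4, KO 1 and KO 5, and a count of 0 allows up to 3 counts, which is 0.145, 0.149 and 0.153 CPM in those libraries (counting error only).

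Breakdown genes differed little between the groups. *Sgpl1*, which encodes S1P lyase, the enzyme of irreversible cleavage, ranged from 223.7 to 248.1 CPM in control and from 227.5 to 246.4 CPM in KO libraries. Its means of 235.2 ± 10.8 and 238.2 ± 7.25 CPM (SD, n = 5) left a 95% interval of the difference from -4.77% to 7.66%, and Gm44308 overlaps the gene on the same strand. *Plpp3*, a surface lipid phosphate phosphatase that removes extracellular S1P and lysophosphatidic acid, averaged 307.3 ± 6.59 CPM in control libraries and 302.4 ± 11.4 CPM in KO libraries (SD, n = 5; 95% interval of the difference -6.88% to 4.03%). The libraries of the groups overlapped for both genes, and both intervals lay within 10% of no difference.

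*Sgpp1*, the phosphatase that dephosphorylates S1P in the endoplasmic reticulum, was at 54.4, 52.9, 57.0, 68.1 and 60.9 CPM in controls 1 to 5 and at 70.0, 55.2, 58.3, 56.8 and 55.7 CPM in KO 1 to 5. Control 4 and KO 1 were again the highest of their groups, at 1.21 and 1.24 times the mean of the others. Group means were 58.7 ± 6.09 and 59.2 ± 6.15 CPM (SD, n = 5), and 56.3 ± 3.49 and 56.5 ± 1.34 CPM without that pair (SD, n = 4). The log2 fold change over all libraries was 0.01 (SE 0.0800, 95% interval -0.16 to 0.19).

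Levels can be compared between genes only per length, as CPM per kilobase of exon. In control libraries *Plpp3* stood highest at 97.3 ± 2.09, followed by *Sgpl1* at 38.3 ± 1.76, *S1pr3* at 13.0 ± 2.45, *Sphk2* at 11.3 ± 0.785 and *Sgpp1* at 10.4 ± 1.08 (SD, n = 5). *S1pr1* followed at 5.70 ± 0.405, then *Sphk1* at 3.26 ± 1.55, *S1pr2* at 2.23 ± 0.329, *Spns2* at 0.319 ± 0.0691, and *Apom* at 0.0634. A surface phosphatase and the lyase, both of which remove S1P, thus held the top ranks, and the export and carriage genes the lowest. The order held in 5 of 5 control libraries for every pair of neighbors except *S1pr3* over *Sphk2* and *Sphk2* over *Sgpp1*, which held in 3 of 5 each (2-sided exact sign-flip permutation p = 0.375 and p = 0.4375). With 5 libraries the smallest p of that test is 0.0625, so it cannot pass 0.05 for any pair.

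In KO libraries the order differed for the receptor genes. *S1pr1* was above *Sphk1* in 5 of 5 control libraries and in 1 of 5 KO libraries, at 2.76 ± 0.292 against 3.71 ± 1.25 per kilobase in KO (SD, n = 5). *S1pr3*, at 10.5 ± 1.21 per kilobase in KO, was above *Sphk2* in 1 of 5 KO libraries. Divided by the longest transcript rather than all exons, *Sgpp1* had a control level of 17.7 and *Sphk2* 13.2 per kilobase. Both were above *S1pr3* at 13.0, so the places of these 3 genes depend on the length used. Orders within libraries were counted by all exons only, and some rest on near ties. Control 4 had 6.10 for *S1pr1* and 5.99 for *Sphk1*, and control 3 had 2.78 for *Sphk1* and 2.77 for *S1pr2*. By the longest transcript *Sphk1* averaged 3.83 in control, so these orders may also depend on the length.

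**Figure D4:**
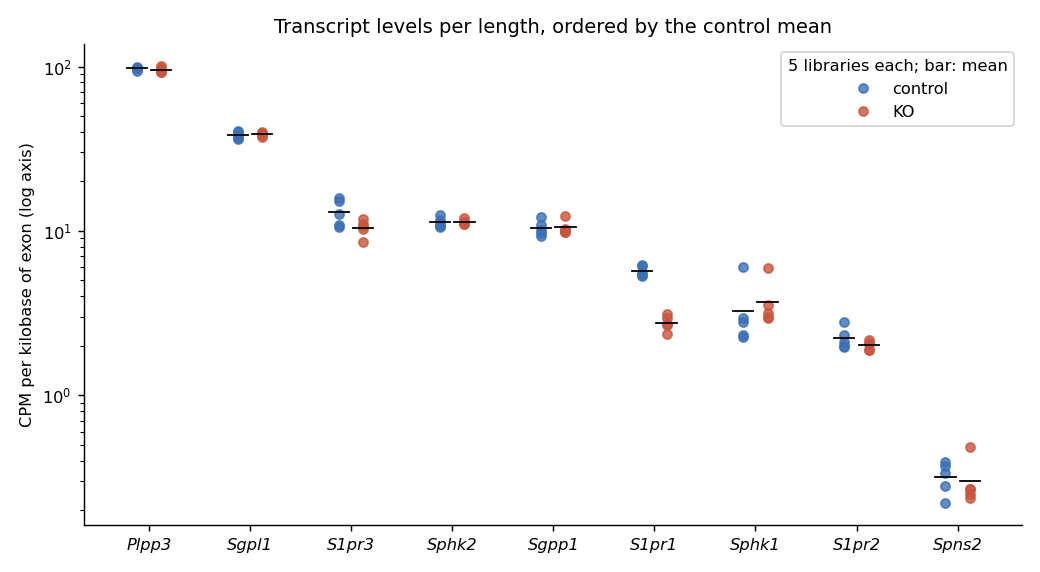
Transcript level per length (CPM per kilobase of exon, log axis) of the 9 members tested, ordered by the control mean, with 5 control and 5 KO libraries as points and bars at the means. *Plpp3* is highest at 97.3 and *Spns2* lowest at 0.319 in control, and *S1pr1* is the gene whose groups are apart.

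Genes around the pathway were taken as 5 lists of 78 genes in all, of which 65 were tested. In edgeR's quasi-likelihood test 1 of the 65 (1.54%) was lower in KO and 0 were higher, beside 1.86% and 0.308% of all genes tested, and at an unadjusted p under 0.05 there were 3 lower and 4 higher. DESeq2 and limma voom also called 1 lower and 0 higher. The median log2 fold change was -0.02, the range -0.31 to 0.28, and 45 of the 65 (69.2%) lay within 0.1 of 0.

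The gene that passed was *Plpp1*, which encodes a lipid phosphate phosphatase related to PLPP3. Controls 1 to 5 were at 44.2, 44.4, 52.4, 40.8 and 49.4 CPM, and KO 1 to 5 at 38.4, 38.2, 36.3, 36.5 and 36.6 CPM. Every KO library lay below every control library (beside 2.66% of all genes tested), with means of 46.2 ± 4.61 CPM in control and 37.2 ± 1.04 CPM in KO (SD, n = 5). Its log2 fold change was -0.31 (SE 0.0633, adjusted p = 0.0200, edgeR quasi-likelihood test, Benjamini-Hochberg adjusted). It passed in 12 of 18 alternative fits, with an adjusted p from 0.00134 (DESeq2's Wald test) to 0.0647, and missed the limit without control 5, KO 2, KO 3, KO 4 or KO 5 (adjusted p 0.0544 to 0.0647, edgeR) and in 1 fit more. *Plpp1* overlaps Mtrex on the other strand, and *Plpp2*, the third gene of that family, had 14.7 ± 1.27 and 13.5 ± 1.04 CPM (SD, n = 5).

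Of 22 genes for the G proteins, downstream effectors, arrestins and trafficking factors of the receptors, 21 were tested, and 0 passed the limit or had an unadjusted p under 0.05 in edgeR's test. Their log2 fold changes ran from -0.13 to 0.16 with a median of -0.01, and 17 lay within 0.1 of 0. *Klf2*, an endothelial transcription factor gene known to promote *S1pr1* expression and named here after its value was seen, averaged 2.47 ± 0.350 CPM in controls and 2.78 ± 0.224 CPM in KO libraries (SD, n = 5). *Gnai2*, which encodes a Gi subunit and was also named after its value was seen, averaged 181.3 ± 14.5 and 166.2 ± 10.9 CPM (SD, n = 5), with a change of -0.13 on the log2 scale (adjusted p = 0.450, edgeR quasi-likelihood test, Benjamini-Hochberg adjusted).

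In the list of ceramide and sphingosine supply, 17 of 22 genes were tested and 0 passed, with 1 lower and 3 higher at an unadjusted p under 0.05. The alkaline ceramidase gene *Acer2*, which releases sphingosine in the Golgi, averaged 259.8 ± 50.2 CPM in controls and 314.5 ± 34.2 CPM in KO libraries (SD, n = 5), with a change of 0.28 on the log2 scale (adjusted p = 0.339, edgeR quasi-likelihood test, Benjamini-Hochberg adjusted). Control 4 (345.8 CPM) and KO 1 (366.7 CPM) were the highest libraries of their groups for *Acer2*. Without control 4 its change was 0.40 (adjusted p = 0.0112, same test), and without both libraries 0.34 (adjusted p = 0.00752, same test). It passed the limit in 2 of 18 alternative fits (adjusted p 0.00752 to 0.586). The ceramide synthase gene *Cers4* was -0.23 in all libraries (adjusted p = 0.234, same test) and -0.30 without control 4 (adjusted p = 0.0205, same test). Without both control 4 and KO 1 it was -0.27 (adjusted p = 0.0314, same test), and it passed in 2 of 18 fits (adjusted p 0.0205 to 0.462). Both genes were named after their values were seen. Of 16 genes of sphingomyelin and glycosphingolipid turnover, 15 were tested and 0 passed, with a median log2 fold change of -0.04 and 1 lower at an unadjusted p under 0.05 in edgeR's test.

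**Figure D5:**
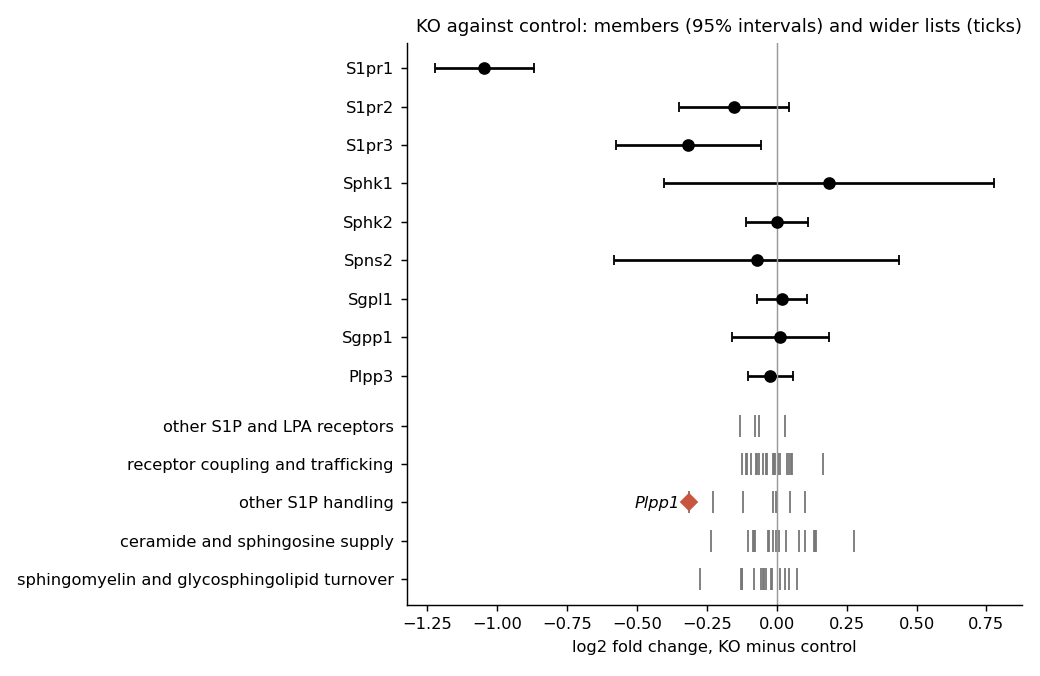
Log2 fold change, KO minus control, of the 9 members tested (points with 95% intervals) and of each tested gene of 5 wider lists (ticks). *S1pr1* lies at -1.05 and the other members within 0.32 of 0, and *Plpp1*, the diamond, is the gene of the wider lists that passed the limit.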

How the data were processed

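The 5 control and 5 KO RNA-seq libraries were made by the authors with SMARTer and Nextera XT kits, and paired-end reads were mapped with STAR to GRCm38.p6 (the labels give mm10) and assigned to Ensembl genes with featureCounts. The deposited values are raw counts per gene, not normalized or filtered. The strand setting is not given in the sources used here. Groups came from the labels, and 0 columns were of other samples. In R 4.3.3, genes passing filterByExpr of edgeR 4.0.16 at a minimum count of 10 were kept and scaled by TMM. KO was compared with control by edgeR's quasi-likelihood test, Benjamini-Hochberg adjusted over 14270 genes, with a limit of 0.05. The common coefficient of variation was 9.35%. Log2 CPM used a prior count of 2. Depth is given above, and genes with few counts carry the largest counting error. Gene positions and exon lengths are from GENCODE M21, a different release from that of the counts. Genes were picked by symbol, and lengths were joined to the counts by Ensembl identifier without its version.

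The members and lists were chosen with earlier results of these data known. Named genes are the 10 members, *S1pr4*, *S1pr5*, *Fam20c*, genes of the wider lists past the limit, and the 5 genes most correlated with *S1pr1* and with *Sphk1*. Other genes of the wider lists, and single markers, were named after their values were seen. Cell type markers were fixed lists for blood vessel endothelium, lymphatic endothelium, pericytes and smooth muscle, macrophages, lymphocytes, adipocytes and adipose progenitors. Alternatives were DESeq2 1.42.0, limma voom (3.58.1) with quality weights, other size factors, other filters, a block for the replicate number, each library left out, and both libraries that stood apart left out. The fitting steps were tested on simulated counts.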

Additional observations from a re-analysis of the deposited data

Results flagged for a closer look

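The highest or lowest library of each group of 5 was compared with the rest by its gap to the nearest library over the range of the group, a ratio above 0.71 in about 1 of 20 groups by chance. Of 38 groups (the member genes, *Plpp1*, the marker sums and *S1pr1* relative to the endothelial sum) 6 were above it, where chance gives 1.90. That number is no yardstick for the excess, since flagged genes share a pattern over the libraries. Over the 10 libraries *Sphk1* correlated with *Sgpp1* at 0.913 and with *Spns2* at 0.674. *Sphk1* stood high in control 4, at 28.6 CPM against 10.8 to 14.1 CPM (ratio 0.817), and in KO 1, at 28.2 CPM against 14.1 to 16.8 CPM (ratio 0.807). In the same KO library, *Sgpp1* had 70.0 CPM against 55.2 to 58.3 CPM (ratio 0.795) and *Spns2* had 1.98 CPM against 0.962 to 1.10 CPM (ratio 0.867). *Sphk2* in KO 5 had 49.6 CPM against 45.9 to 46.8 CPM (ratio 0.747). The summed pericyte and smooth muscle markers in KO 3 were 131.0 CPM against 170.3 to 177.2 CPM (ratio 0.851).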

How the results depend on the processing

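The log2 fold change of *S1pr1*, a description since the gene was chosen on this contrast, ran from -1.09 to -0.99 over 18 alternative fits. The numbers of genes called lower and higher in KO, 265 and 44, were 164 to 323 and 19 to 119 with each library left out, and 353 and 145 without both control 4 and KO 1. Genes called higher numbered 125 by DESeq2 and 111 by limma voom. For the wider lists, 1 lower and 0 higher became 0 to 2 and 0 to 1 with each library left out, and 2 and 1 without that pair. Members near 0 changed sign: with each library left out *Sphk1* ran from -0.039 to 0.52, *Sphk2* from -0.0198 to 0.0419, *Spns2* from -0.30 to 0.017 and *Sgpp1* from -0.0512 to 0.0746 on the log2 scale. *Sphk2* was also -0.0037 with upper-quartile normalization, -0.0025 with a minimum count of 30, -0.0069 with limma voom and -0.0091 without that pair. The cause was not tested. *Spns2* was not tested with a minimum count of 30. By the longest transcript, control levels per kilobase were 2.78 for *S1pr2*, 13.2 for *Sphk2*, 0.401 for *Spns2*, 53.9 for *Sgpl1* and 17.7 for *Sgpp1*, since fewer bases divide the same counts. Against *Pecam1* and *Cdh5* alone the *S1pr1* percentage was 18.3 in control and 21.3 in KO. Summing fewer markers raises both percentages. The KO mean over the control mean was 1.16 with these 2 markers and 1.02 with the 15, so the comparison of groups also depends on the markers taken.

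Libraries of the 2 groups share replicate numbers 1 to 5. The same-numbered libraries did not deviate together (correlations of -0.251 to 0.263 over genes, 1 of 5 best with its own number). The main fit therefore used no pairs, but these correlations cannot exclude a shared source, and the labels do not say whether the numbers pair the samples. With the replicate number as a block, 193 genes were lower and 21 higher, 0 genes of the wider lists were lower (*Plpp1* had an adjusted p of 0.0596), and *S1pr1* was -1.05.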

Other observations

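The lysophosphatidic acid branch, which shares phosphatases with S1P, was expressed in the same cultures. *Enpp2*, which encodes the secreted enzyme autotaxin that makes lysophosphatidic acid, averaged 551.3 ± 22.9 CPM in controls and 546.4 ± 13.0 CPM in KO libraries (SD, n = 5). The receptor genes *Lpar1* (35.9 ± 3.09 and 34.0 ± 3.88 CPM), *Lpar6* (22.8 ± 2.51 and 21.8 ± 2.20 CPM), *Lpar4* (6.23 ± 0.610 and 5.67 ± 0.374 CPM) and *Lpar2* (0.756 ± 0.217 and 0.764 ± 0.0798 CPM) were tested. None passed the limit (adjusted p 0.650 to 0.986, edgeR quasi-likelihood test, Benjamini-Hochberg adjusted). *Lpar3* and *Lpar5* had at most 11 and 7 counts in a library. In the final step of S1P breakdown, *Aldh3a2*, the fatty aldehyde dehydrogenase gene, averaged 54.5 ± 1.99 CPM in controls and 58.4 ± 1.48 CPM in KO libraries (SD, n = 5), and every KO library lay above every control library (beside 1.31% of all genes tested), while its log2 fold change of 0.10 did not pass the limit (adjusted p = 0.299, same test). These genes were named after their values were seen.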
